A study of Mus musculus with 32 samples.

Results

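The genes described here are 3 members of the Reg3 family (Reg3g, Reg3b and Reg3a), both prokineticin receptors (Prokr2 and Prokr1) and the ligand Prok2, which are 6 of the 39676 genes in the table. They were picked by symbol, because Reg3g and Prokr2 had the lowest levels in intrapleural (IPL) relative to subcutaneous (SC) tumors of both models. The IPL and SC levels of these 6 genes are therefore given as a description, without a test. Reg3 proteins are secreted C-type lectins, known mainly as antimicrobial products of the intestinal and pancreatic epithelium and of wounded skin, where IL-22, IL-17 and IL-6 family cytokines induce them through STAT3 and related factors. Prokineticins are small secreted proteins that signal through the G protein-coupled receptors PROKR1 and PROKR2, which couple to Gq, phospholipase C and calcium release. Prok2, also called Bv8, is known as a product of neutrophils and other myeloid cells and as a rhythmic signal of the brain clock, and PROKR1 is associated with endothelium and PROKR2 with neurons.

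RNA was sequenced from 32 whole tumors, with 8 from each site (SC or IPL) of each model (AB1 or AE17). AB1 and AE17 are mouse mesothelioma cell lines, and they were grown in female BALB/c mice (500000 AB1 cells each) and female C57BL/6 mice (1000000 AE17 cells each), all aged 8 to 10 weeks. Each group used 1 cell line in 1 mouse strain, so that cell line and strain cannot be told apart. Each tumor came from a separate mouse, tumors were collected on day 10 without treatment, and IPL tumors were freed from the lungs before RNA extraction. The total counts per tumor lay between 15432258 and 20649645. A count of 0 allows up to 3 counts, equal to 0.145 to 0.194 CPM (counts scaled to the library total after TMM scaling by edgeR), a limit that covers counting error only. All AB1 IPL tumors were sequenced on lane 3 with 2 AB1 SC tumors, and the other 6 AB1 SC tumors on lane 2. AE17 SC tumors were all sequenced on lane 1 with 3 AE17 IPL tumors, and the other 5 AE17 IPL tumors on lane 2.

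Reg3g (ENSMUSG00000030017) lies on the minus strand at chr6:78466269-78468872 of GRCm38, in a cluster with 5 other Reg genes, and Reg3b and Reg3a occupy the same cluster at chr6:78370657-78373466 and chr6:78380709-78383827. Prokr1 (chr6:87578591-87590743) and Prok2 (chr6:99711299-99726392) are on the same chromosome, and Prokr2 (ENSMUSG00000050558) is at chr2:132337733-132385447. All 6 are protein-coding genes in GENCODE M21. Of these, Prok2 is overlapped by an antisense gene, Gm26748, which had 0 counts in all tumors. The transcripts of Reg3g shared no stretch of 50 bases, the length of the reads, with those of Reg1, Reg2, Reg3a, Reg3b or Reg3d, and the same held for Prokr2 against Prokr1, so that no exact read could come from both.

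The promoters of the 3 genes with counts in nearly every tumor are printed to set the letters found near their starts side by side. Each sequence is the 250 bases before the RefSeq start on GRCm38.p6, written in the direction of transcription, and capitals mark TATAAA, TTCNNNGAA (the core read by STAT factors), CACGTG (an E-box) or GGGCGG (a GC box) on either strand.
Reg3g, chr6:78468875-78469124, minus strand: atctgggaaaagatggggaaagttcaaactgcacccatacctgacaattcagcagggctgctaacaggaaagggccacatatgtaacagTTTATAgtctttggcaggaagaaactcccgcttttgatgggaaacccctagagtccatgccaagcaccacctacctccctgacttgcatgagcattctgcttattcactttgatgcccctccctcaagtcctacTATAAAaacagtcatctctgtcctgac
Prokr2, chr2:132385448-132385697, minus strand: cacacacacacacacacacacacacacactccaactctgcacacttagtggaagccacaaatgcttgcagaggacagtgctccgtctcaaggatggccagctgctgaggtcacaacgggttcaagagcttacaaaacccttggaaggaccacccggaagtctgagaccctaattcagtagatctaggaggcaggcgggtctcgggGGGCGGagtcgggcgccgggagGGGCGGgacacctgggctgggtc
Prokr1, chr6:87590744-87590993, minus strand: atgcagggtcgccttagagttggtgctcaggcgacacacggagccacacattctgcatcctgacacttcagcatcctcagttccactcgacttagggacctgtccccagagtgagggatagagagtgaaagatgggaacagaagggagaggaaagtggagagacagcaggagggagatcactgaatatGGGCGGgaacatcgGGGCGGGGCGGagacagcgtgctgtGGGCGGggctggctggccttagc
Reg3g has TATAAA starting 27 bases before the start and a second match on the other strand 161 bases before it, while Prokr2 holds 2 GC boxes and Prokr1 holds 4, of which 2 share a base. In the same window TATAAA also starts 29 bases before the start of Reg3b and 30 bases before that of Reg1, and a match on the other strand lies 46 bases before that of Prok2. Among 32817 mouse promoters of this length, 12.4% held TATAAA, 7.02% TTCNNNGAA, 6.02% CACGTG and 32.7% GGGCGG (overlaps between motifs allowed). TTCNNNGAA was found in the window of Reg3b, 129 bases before the start, and CACGTG in that of Prok2, 135 bases before it.

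Of the 6 genes, Reg3g, Prokr2 and Prokr1 were measured and the other 3 were at or near 0. Reg3b, the family member usually induced together with Reg3g in the gut, had 1 count over all 32 tumors, and Reg3a had 2 counts in 2 tumors. Prok2 had 8 counts in 5 tumors and at most 3 in any of them, which equals 0.159 CPM. A difference between groups in these 3 genes was not detectable at this depth, and no fold change is given. The filter of edgeR passed Reg3g, Prokr2 and Prokr1 in both IPL against SC comparisons. Reg3g and Prokr2 passed through the SC groups, in which they were high, whereas Prokr1 had at least 11 counts in every tumor.

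**Figure D1:**
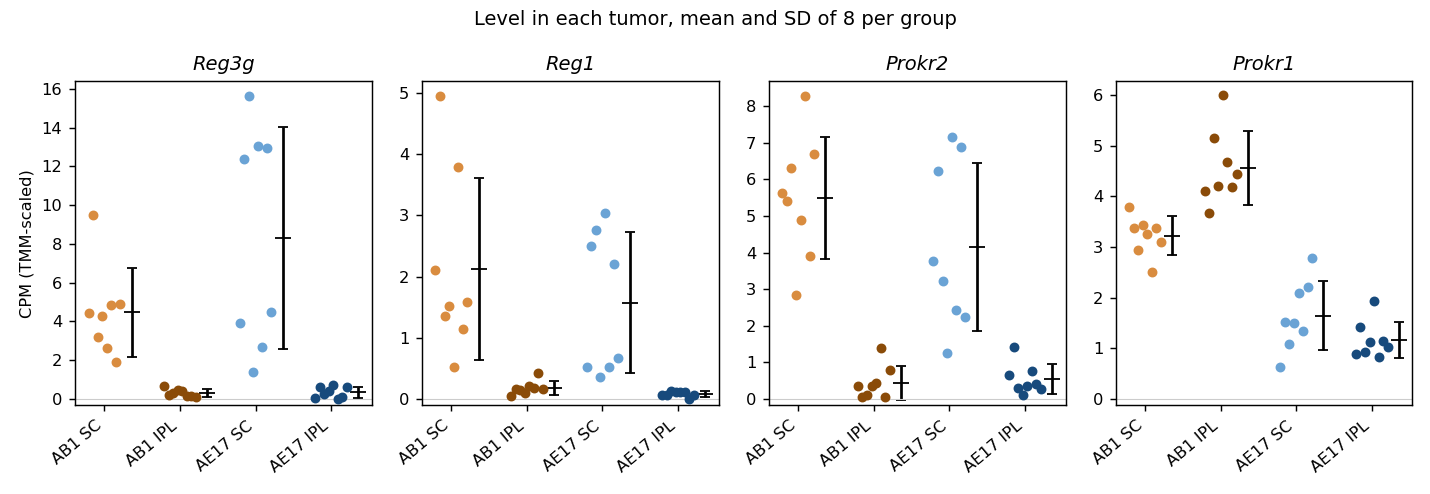
Level (CPM, linear axis) of Reg3g, Reg1, Prokr2 and Prokr1 in each of the 32 tumors, with 1 point per tumor and the mean and SD of 8 tumors beside each group. Reg3g and Reg1 lie near 0 in all IPL tumors, Prokr2 lies low in IPL tumors of both models, and Prokr1 is lower in AE17 than in AB1 at both sites.

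Reg3g encodes an antimicrobial lectin that binds the peptidoglycan of gram-positive bacteria. In AB1 SC tumors it had 32, 76 and 188 counts in the lowest, the median and the highest tumor, or 1.93, 4.36 and 9.49 CPM. In AB1 IPL tumors it had 2, 5 and 13 counts, or 0.104, 0.259 and 0.643 CPM. In AE17 SC tumors it had 23, 138.5 and 261 counts (1.38, 8.43 and 15.6 CPM), and in AE17 IPL tumors 0, 5.5 and 12 counts (0, 0.332 and 0.724 CPM). Every IPL tumor thus lay below every SC tumor of its model, and several IPL tumors were at or under 3 counts. The means were 4.46 ± 2.30 CPM in AB1 SC, 0.311 ± 0.190 in AB1 IPL, 8.30 ± 5.70 in AE17 SC and 0.348 ± 0.281 in AE17 IPL tumors (SD, n = 8 each).

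The fitted log2 fold change of Reg3g (edgeR, IPL minus SC), was -3.83 (SE 0.37) in AB1 and -4.54 (SE 0.61) in AE17. Leaving out each tumor in turn gave -4.07 to -3.58 in AB1 and -4.78 to -4.35 in AE17. Within lane 3, which holds 8 AB1 IPL and 2 AB1 SC tumors, it was -4.52, and within lane 1, which holds 3 AE17 IPL and 8 AE17 SC tumors, it was -5.02. Reg3g and Prokr2 were picked for these falls, so their place ahead of other genes follows from the choice. The gene next after them, by the smaller of both falls among genes averaging 1 CPM or more and called lower in both models, was Gm15242, with -2.42 in AB1 and -2.58 in AE17. As background, 23% of all genes tested in AB1 and 5.73% in AE17 had a Benjamini-Hochberg adjusted p under 0.05 by edgeR, and 10.7% and 3.13% had it with a lower level in IPL tumors. Over all genes tested, groups that do not overlap with IPL below SC made up 2.53% in AB1 and 0.3% in AE17. Since whole tumors were measured, fewer cells that express a gene and less RNA in each cell cannot be told apart.

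Reg3g in AE17 SC tumors fell into 2 separate ranges. Replicates 2, 3, 5 and 7 had 203, 261, 206 and 218 counts, while replicates 1, 4, 6 and 8 had 67, 23, 46 and 74. AB1 SC tumors were closer together except for replicate 2, which had 188 counts against at most 84 in the others. The spread between tumors of a group (SD as a percentage of the mean) was 51.6% in AB1 SC and 68.7% in AE17 SC.

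The other Reg genes of the cluster were examined to see whether Reg3g stood alone. Reg1, which encodes a related secreted lectin of the acinar pancreas and was not among the genes picked, was the only other Reg gene with more than 2 counts in any tumor. The cluster held 2387 counts over all tumors, of which Reg3g had 1831 (76.7%), Reg1 had 551 (23.1%) and the 4 others had 5 together. In AB1 SC tumors Reg1 had 9, 25.5 and 98 counts (lowest, median and highest), and in AB1 IPL tumors it had 1, 3 and 9. In AE17 SC tumors it had 6, 24 and 48 counts, and in AE17 IPL tumors 0, 1.5 and 2. In both models every IPL tumor lay below every SC tumor in CPM.

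Reg1 was too low to pass the filter for the IPL against SC comparisons, so it was compared by an exact permutation test over all splits of 8 tumors against 8. Mean log2 CPM (prior count 2) differed, IPL minus SC, by -2.74 in AB1 (-1.85 against 0.89) and by -2.77 in AE17 (-2.39 against 0.38). Both tests gave a two-sided p of 0.000155, unadjusted, which is the smallest they can give. The fit of all 32 tumors, in which Reg1 passed the filter, gave log2 fold changes of -3.51 (SE 0.50, adjusted p = 5.59e-06 by edgeR) in AB1 and -4.15 (SE 0.58, adjusted p = 6.39e-05) in AE17. Within lane 3 the AB1 value was -4.30 (adjusted p = 0.00217). Within lane 1 the AE17 value was -4.60 with an adjusted p of 0.159, and with the lane as a covariate of all 32 tumors it was -4.60 with an adjusted p of 0.0192. In these fits Reg1 passed the filter only through SC tumors, since IPL tumors had 0 to 9 counts. Its levels also went with those of Reg3g among SC tumors. The tests of Reg1 are therefore not support that is separate from the choice of Reg3g.

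**Figure D2:**
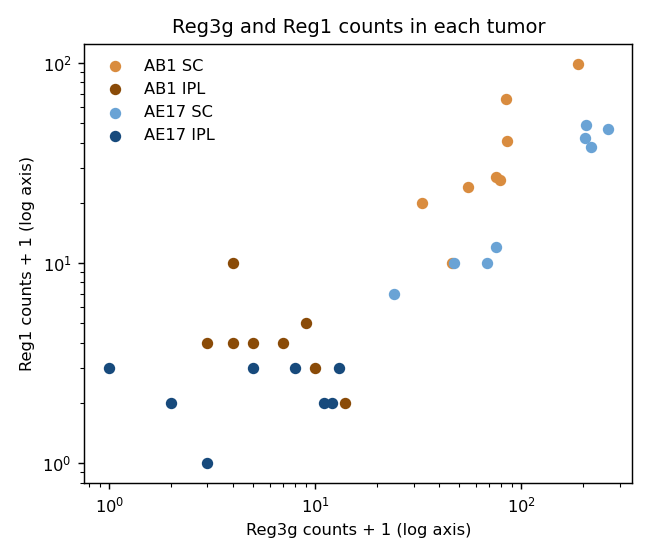
Counts of Reg1 against counts of Reg3g in each of the 32 tumors, 1 added to each for the log axes and 1 point per tumor, coloured by group. SC tumors with more Reg3g have more Reg1 within each model, with more Reg3g per Reg1 in AE17 SC than in AB1 SC tumors, and IPL tumors lie at the lower left.

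Tumors with more Reg3g also had more Reg1 within the SC groups. The 4 AE17 SC tumors with 203 to 261 Reg3g counts had 37 to 48 Reg1 counts, and the 4 with 23 to 74 Reg3g counts had 6 to 11 Reg1 counts. AB1 SC replicate 2 was highest in both genes. In AB1 SC tumors Pearson's r of the log2 CPM of both genes was 0.82 and Spearman's rho 0.90 (n = 8), and r was 0.83 without the 2 tumors farthest from the median of Reg3g. In AB1 IPL tumors, where Reg1 had 1 to 9 counts, r was -0.64 and rho -0.60. These values are a description, since the pair was chosen after its values were seen. No pooled coefficient is given for AE17 SC, where tumors lie in 2 separate ranges. The ratio differed between the models, with 2.09 Reg3g counts per Reg1 count summed over AB1 SC tumors and 5.30 over AE17 SC tumors. Per exon length (2114 bases in Reg3g and 904 in Reg1) the levels were 0.895 and 2.27 units of Reg3g per unit of Reg1, a difference that was not tested.

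The sources that are textbook sites of Reg3 and Reg1 expression were checked by their markers. Of 8 pancreatic acinar markers, 6 had a row, none had more than 5 counts in a tumor, and their summed level lay between 0.0526 and 0.379 CPM over all tumors. Reg1 reached 4.95 CPM, and the source of its reads was not tested. Of the 6 intestinal epithelium markers, Fabp2 was at 0 in all tumors, Cdx2 had 2 counts in all, and the summed level was at most 1.20 CPM in AB1 SC, 1.44 in AB1 IPL, 13.7 in AE17 SC and 7.48 in AE17 IPL tumors, and Lgr5, a stem cell gene that other tissues also express, reached 12.9 CPM in an AE17 SC tumor. Of 12 keratinocyte markers, 9 had a row, none was at 0 in every tumor of a group, and they summed to 3.43 to 5.70 CPM in AB1 SC and 3.34 to 8.66 CPM in AB1 IPL tumors, and to 7.64 to 53.8 CPM in AE17 SC and 14.2 to 20.9 CPM in AE17 IPL tumors. The median count was 0 for 5 of the 9 in AB1 SC, 3 in AB1 IPL, 1 in AE17 SC and 2 in AE17 IPL tumors. The tumor at 53.8 CPM, AE17 SC replicate 6, was among the 4 with low Reg3g (46 counts), and the next, AE17 SC replicate 5 at 39.98 CPM, was among the 4 with high Reg3g (206 counts). The relation of Reg3g to the keratinocyte markers within AB1 SC tumors is given with the correlations.

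Prokr2 encodes a prokineticin receptor that is best known from the olfactory bulb, the hypothalamus and the peripheral nervous system. In AB1 SC tumors it had 49, 106.5 and 142 counts in the lowest, the median and the highest tumor, or 2.85, 5.51 and 8.28 CPM. In AB1 IPL tumors it had 1, 7 and 24 counts (0.0465, 0.357 and 1.40 CPM). In AE17 SC tumors it had 21, 59.5 and 116 counts (1.26, 3.51 and 7.15 CPM), and in AE17 IPL tumors 2, 6.5 and 24 counts (0.119, 0.382 and 1.42 CPM). All AB1 IPL tumors were below all AB1 SC tumors, whereas in AE17 the highest IPL tumor (replicate 2) exceeded the lowest SC tumor (replicate 4). The means were 5.49 ± 1.68 CPM in AB1 SC, 0.441 ± 0.459 in AB1 IPL, 4.15 ± 2.29 in AE17 SC and 0.540 ± 0.412 in AE17 IPL tumors (SD, n = 8 each).

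The fitted log2 fold change of Prokr2, IPL against SC, was -3.67 (SE 0.46) in AB1 and -2.92 (SE 0.44) in AE17. Leaving out each tumor in turn gave -4.18 to -3.48 and -3.31 to -2.77. Within lane 3 the AB1 value was -3.70, and within lane 1 the AE17 value was -3.09. The protein-coding genes nearest to Prokr2 that were tested, namely Slc23a2, Tmem230, Pcna, Cds2 and Gpcpd1, had log2 fold changes between -0.27 and 0.08 in AB1 and between -0.08 and 0.17 in AE17, where Slc23a2 in AB1 (-0.27, adjusted p = 0.00322 by edgeR) was the only one that passed the test. Of the endothelium markers, all 8 were tested, of which 4 rose in AB1 IPL tumors (Vwf the most, by 1.59 on the log2 scale) and 1 in AE17 IPL tumors, with 0 of 8 in either model by edgeR with the lane as a covariate, and their summed level was 149 to 183 CPM in AB1 SC, 138 to 241 in AB1 IPL, 180 to 226 in AE17 SC and 192 to 339 in AE17 IPL tumors. The Schwann cell and neuron markers, 7 of 8 with a row, summed to a median of 118 CPM in AB1 SC, 118 in AB1 IPL, 39.3 in AE17 SC and 37.6 in AE17 IPL tumors, with ranges that overlapped between sites in both models, and none of these markers was at 0 in every tumor of a group.

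Prokr1, the second receptor for the same ligands, did not follow Prokr2. It had 43, 56 and 72 counts in the lowest, the median and the highest AB1 SC tumor (2.51, 3.32 and 3.78 CPM) and 69, 84 and 111 counts in AB1 IPL tumors (3.67, 4.32 and 6.01 CPM). In AE17 SC tumors it had 11, 25 and 46 counts (0.640, 1.51 and 2.79 CPM), and in AE17 IPL tumors 14, 18.5 and 32 counts (0.824, 1.08 and 1.93 CPM). Its level was steady within AB1, where the SD was 11.8% of the mean in SC tumors, against 41.6% in AE17 SC tumors. The fitted log2 fold change, IPL against SC, was 0.48 (SE 0.12) in AB1, where 7 of 8 IPL tumors lay above every one of the SC tumors and the lowest IPL tumor (3.67 CPM) lay below the highest SC tumor (3.78 CPM, while 2.5% of all genes had the stricter order of every IPL tumor above every SC tumor), and -0.49 (SE 0.26) in AE17, where the ranges overlapped. The AB1 value was 0.29 within lane 3.

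**Figure D3:**
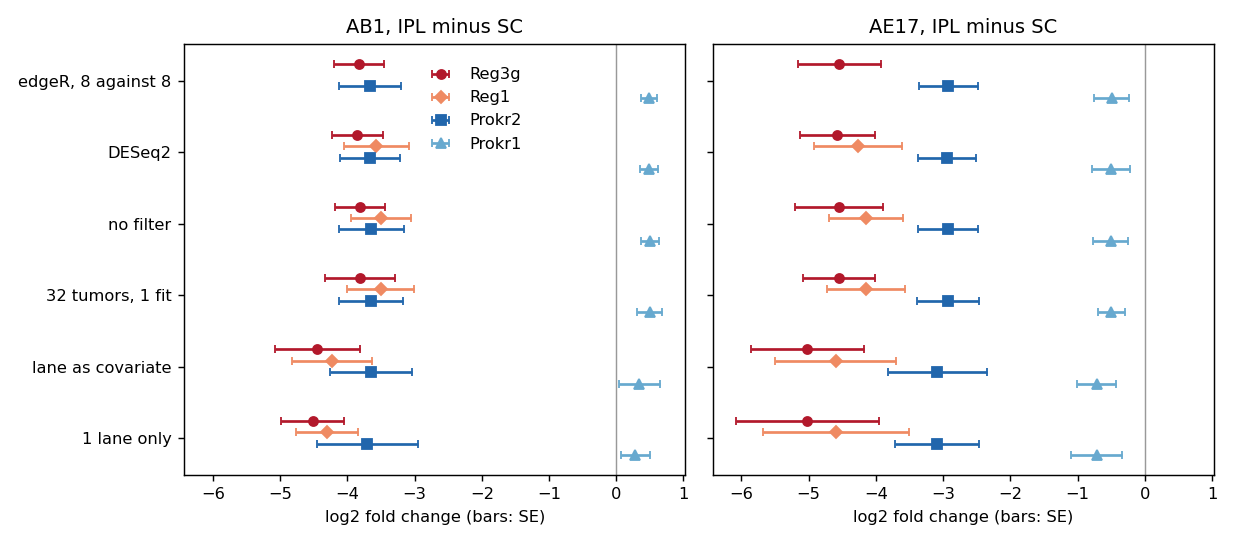
Log2 fold change, IPL minus SC, of Reg3g, Reg1, Prokr2 and Prokr1 in AB1 (left) and AE17 (right) under 6 ways of fitting, with SE as bars. Reg3g, Reg1 and Prokr2 lie below -2.5 in every fit that tested them, and Prokr1 lies above 0 in AB1 and below 0 in AE17. Reg1 has no point in the top row, where it did not pass the filter.

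The balance of both receptors was compared per exon length (7919 bases in Prokr2 and 4230 in Prokr1). Prokr2 made up 30.7% to 63.8% of the receptor signal in AB1 SC tumors (mean 46.8% ± 10.2) and 30.1% to 75.9% in AE17 SC tumors (mean 55.5% ± 17.1). It made up 0.590% to 13.8% in AB1 IPL tumors (mean 4.66% ± 4.55) and 5.32% to 34.8% in AE17 IPL tumors (mean 19.3% ± 11.2; SD, n = 8 each). Prokr2 exceeded Prokr1 per length in 3 of 8 AB1 SC and 5 of 8 AE17 SC tumors and in no IPL tumor of either model. On the same scale, CPM per kilobase of exon, the mean level in AB1 SC tumors was 2.11 for Reg3g, 0.762 for Prokr1 and 0.694 for Prokr2, and in AE17 SC tumors it was 3.93, 0.389 and 0.525. Reg3g was thus the highest of the 6 genes per length at the SC site of both models, while in IPL tumors Prokr1 was highest, with 1.08 in AB1 and 0.275 in AE17.

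**Figure D4:**
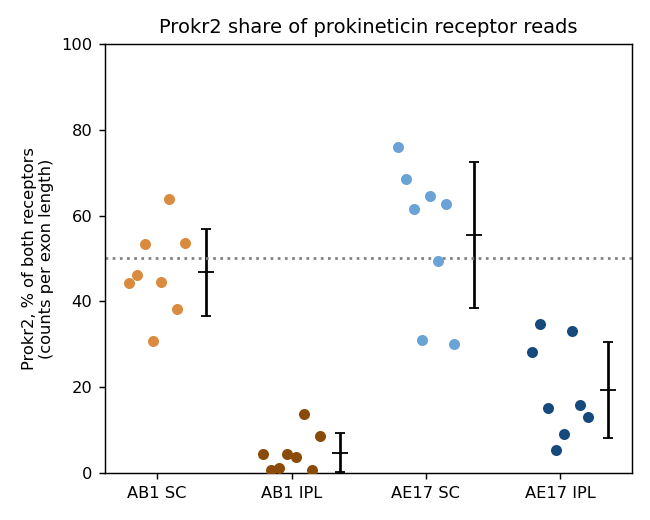
Prokr2 as a percentage of the summed Prokr2 and Prokr1 counts per exon length in each of the 32 tumors, with the mean and SD of 8 tumors beside each group and a dotted line at 50%. SC tumors of both models lie on both sides of the line, and all IPL tumors lie below it, at most at 34.8%.

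The models were compared at each site, a contrast that played no part in picking the genes. At the SC site, 63.7% of all genes tested differed between AB1 and AE17 tumors (adjusted p under 0.05 by edgeR), 31.2% being higher in AB1, and of the 3 measured genes Prokr1 alone did. Prokr1 was higher in AB1 SC tumors by 0.96 on the log2 scale (SE 0.21, adjusted p = 0.000733), although the lowest AB1 SC tumor (2.51 CPM) lay below the highest AE17 SC tumor (2.79 CPM). Prokr2 differed by 0.39 (SE 0.31, adjusted p = 0.285) and Reg3g by -0.90 (SE 0.45, adjusted p = 0.0875). The call for Reg3g depended on single tumors, since the adjusted p was 0.0263 at the lowest without one of them, and it fell under 0.05 without AB1 SC replicate 2, AE17 SC replicate 4 or AE17 SC replicate 6. At the IPL site, 59.1% of all genes differed, and Prokr1 was higher in AB1 by 1.98 on the log2 scale (SE 0.18, adjusted p = 4.25e-08), with every AB1 IPL tumor above every AE17 IPL tumor. Of all genes, 30.5% were called higher in AB1 IPL tumors and 13.1% had this order. Reg3g and Prokr2 did not pass the filter at this site, and exact permutation tests gave differences of 0.061 (p = 0.891) and -0.42 (p = 0.410) in mean log2 CPM, two-sided and unadjusted.

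AB1 and AE17 tumors of the same site shared no sequencing lane, so the lane could be accounted for only in the fit of all 32 tumors. There the Prokr1 difference was 0.58 at the SC site (adjusted p = 0.248), no longer past the threshold, and 1.64 at the IPL site (adjusted p = 0.00221). At the SC site the Reg3g difference was -1.89 (adjusted p = 0.160) and that of Prokr2 0.15 (adjusted p = 0.920) in this fit. The order of group means was AE17 SC, AB1 SC, AE17 IPL and AB1 IPL for Reg3g, and AB1 SC, AE17 SC, AE17 IPL and AB1 IPL for Prokr2. For Reg3g only the step from AB1 SC to AE17 IPL separated the ranges of neighbours. For Prokr2 and for Prokr1 (AB1 IPL, AB1 SC, AE17 SC and AE17 IPL), the ranges of all neighbours in the order overlapped.

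Genes that act upstream or downstream of these 6 were described from 6 lists of 63 genes in all, compared between sites by edgeR with adjustment over all genes. In AB1, 42 were tested, of which 6 rose and 14 fell in IPL tumors, against 12.3% of all genes that rose and 10.7% that fell. In AE17, 43 were tested, of which 4 rose and 0 fell, against 2.6% and 3.13%. At an unadjusted p under 0.05, 11 rose and 4 fell in AE17, and DESeq2 called 9 and 1. Slpi, an antiprotease with antimicrobial activity, was the only gene called in both models. Its log2 fold change was 2.81 (SE 0.82, adjusted p = 0.0199) in AB1 and 1.07 (SE 0.30, adjusted p = 0.0446) in AE17, and it was past the threshold in AE17 only in 4 of the 16 fits that left out 1 tumor. With the lane as a covariate of all 32 tumors its fold changes were 2.58 (SE 1.16, adjusted p = 0.225) and 1.29 (SE 0.78, adjusted p = 0.459), past the threshold in neither model, and with the replicate block they were 1.40 (adjusted p = 0.293) and 1.06 (adjusted p = 0.135).

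Of 10 listed cytokines that can induce Reg3 genes, 7 were tested and 5 fell in AB1 IPL tumors, with a median log2 fold change of -0.82 against -0.0023 for all genes. Tnf (-1.15, SE 0.24), the alarmin Il33 (-1.17, SE 0.39) and the IL-6 family members Osm (-0.87, SE 0.18) and Lif (-0.65, SE 0.13) fell together with Il1b (-0.82, SE 0.24), while Il6 had -0.042 (adjusted p = 0.943) and Il11 -0.40 (adjusted p = 0.173). The call for Il33 was lost in 10 of the 16 fits that left out 1 tumor (adjusted p up to 0.0726). Of the 5 macrophage markers tested, 3 fell in AB1 IPL tumors, against 10.7% of all genes. They were Mrc1 (-0.94, SE 0.24), C1qa (-0.44, SE 0.15) and Cd68 (-0.33, SE 0.11). The summed level of the 5 was 1288 to 2463 CPM in AB1 IPL against 1735 to 2724 CPM in AB1 SC tumors. With the replicate block 3 of the 5 passed by edgeR, with the lane as a covariate 0, and within lane 3 also 0. None of the 5 was at 0 in every tumor of a group, none passed in AE17 (1978 to 2331 CPM in IPL and 1552 to 2483 CPM in SC tumors), and their part in the cytokine levels was not tested. In AE17 the same 7 cytokine genes had a median of 0.058 and none passed the test. With the lane as a covariate of all 32 tumors, 0 of the 7 passed by edgeR in AB1. Of the direct inducers, Il22 had 0 counts in all tumors, Il17a had 2 and Il17f had 73, with at most 7 in a tumor, and none of them was tested. Among their receptors and transducers, Il10rb, a subunit of the IL-22 receptor, and the kinases Tyk2 and Jak1 fell slightly in AB1, by 0.31, 0.26 and 0.23 on the log2 scale, of 11 tested. The call for Jak1 was lost in 9 of the 16 fits that left out 1 tumor (adjusted p up to 0.0831) and that for Il10rb in 1 of them (adjusted p = 0.0504). With the lane as a covariate 0 of the 11 passed by edgeR, and with the replicate block 1 passed. Trdc (-2.09, SE 0.24), a constant chain of the gamma-delta T cell receptor, fell in AB1 IPL tumors as well. The part of these genes in the Reg3g levels was not tested.

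**Figure D5:**
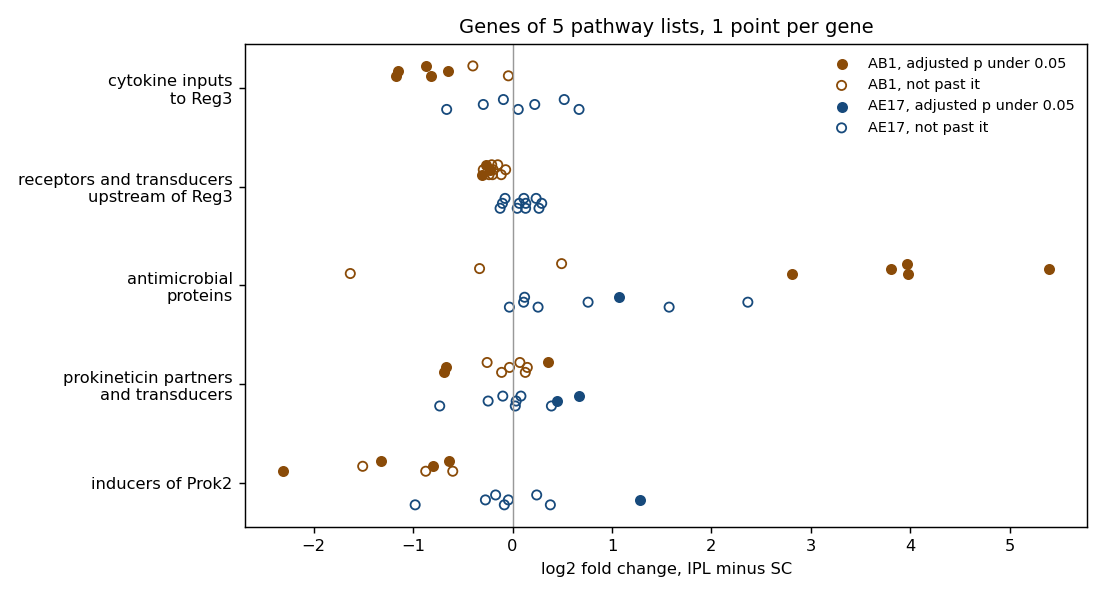
Log2 fold change, IPL minus SC, of the tested genes of 5 pathway lists in AB1 (brown, upper row of each list) and AE17 (blue, lower row), 1 point per gene, filled where the adjusted p is under 0.05. In AB1 the cytokine and Prok2 inducer lists lie to the left of 0 and 5 antimicrobial proteins lie to the right at 2.81 or more, and in AE17 few points are filled.

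None of the other antimicrobial proteins tested was called lower in IPL tumors of either model, against 10.7% of all genes in AB1 and 3.13% in AE17. Of 14 listed, 8 were tested, and in AB1 IPL tumors 5 rose, with a median log2 fold change of 3.31 over the list. They were Ltf (5.40, SE 1.26), the neutrophil calgranulins S100a9 (3.97, SE 1.02) and S100a8 (3.81, SE 0.97), Lcn2 (3.96, SE 0.86) and Slpi. The rest did not pass by edgeR, namely Chil3 (-1.63, adjusted p = 0.171), Pglyrp1 (-0.33, adjusted p = 0.485) and S100a7a (0.49, adjusted p = 0.0906). With the lane as a covariate 0 of the 8 passed by edgeR, and with the replicate block 1 passed. S100a8 and S100a9 also mark neutrophils, and the 9 neutrophil markers with a row summed to 81.8 to 683 CPM in AB1 IPL tumors against 138 to 197 CPM in AB1 SC tumors, while the neutrophil receptors Csf3r (-0.80) and Il1r2 (-1.23) fell. In AE17 only Slpi passed, and the neutrophil sums were 58.0 to 96.1 CPM in IPL and 50.3 to 120 CPM in SC tumors. The part of neutrophils in these values was not tested.

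On the prokineticin side the second ligand gene, Prok1, had 15 counts over 11 tumors and at most 2 in any. The list of the ligand, the receptor partner and the transducers held 12 genes, of which 9 were tested. In AB1, the phospholipase C genes Plcb1 (-0.69, SE 0.18) and Plcb2 (-0.67, SE 0.10) fell and the G protein gene Gna11 rose (0.35, SE 0.10). In AE17, Plcb4 (0.67, SE 0.19) and the calcium channel gene Itpr3 (0.45, SE 0.11) rose, but these calls were lost in 10 and 9 of the 16 fits that left out 1 tumor (adjusted p up to 0.0861 and 0.0624). With the lane as a covariate 0 of the 9 passed by edgeR in either model. Genes known to induce Prok2 in myeloid cells fell in AB1, where 4 of 7 tested passed, namely Csf2 (-2.30, SE 0.23), Cxcl2 (-1.32, SE 0.31), Csf3r and Hif1a (-0.64, SE 0.16). In AE17, Csf3, which encodes the cytokine G-CSF, rose by 1.28 (SE 0.34, adjusted p = 0.0396), a call lost in 11 of the 16 fits that left out 1 tumor (adjusted p up to 0.0778). With the lane as a covariate 1 of 8 genes of this list passed in AB1 and 0 of 8 in AE17. Prok2 itself stayed near 0 in every group. Within the single lane that held both sites, Csf2 was the only gene of these lists apart from Reg1 that passed in AB1, and none passed in AE17.

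Relations among these genes and with cell type markers were tested within each group, where both had at least 3 counts in 6 or more tumors. Of 14 relations, 0 had a Benjamini-Hochberg adjusted p under 0.05 by exact permutation tests, and 2 had an unadjusted p under 0.05. One was Reg3g with the neutrophil score in AB1 IPL tumors, with r = 0.73 (exact p = 0.0496, adjusted 0.246), rho = 0.76 (exact p = 0.0368, adjusted 0.388) and r = 0.84 without the 2 tumors farthest from the median of Reg3g. Reg3g had 2 to 13 counts in these tumors. The other was Reg3g with Prokr2 in AE17 SC tumors, positive and with the smallest p of the 14 (exact p = 0.0121, adjusted 0.170, for Pearson's r). Since Reg3g lies in 2 separate ranges there, with 4 tumors each, no coefficient is given for these relations in this group, and they cannot be tested within the ranges. The tumors with 203 to 261 Reg3g counts had 54 to 116 Prokr2 counts and the others had 21 to 65, so these ranges overlapped. Reg3g and Prokr2 in AB1 SC tumors gave r = 0.29 (exact p = 0.482, adjusted 0.736) and rho = 0.52 (exact p = 0.197, adjusted 0.459), and r = 0.20 without the 2 tumors farthest from the median of Reg3g. Reg3g and the keratinocyte score in AB1 SC tumors gave r = 0.039 (exact p = 0.923, adjusted 0.923) and rho = 0.36 (exact p = 0.389, adjusted 0.496), and r = 0.0051 without those tumors. With a prior count of 0.5 in place of 2, r was -0.12 and rho was -0.19. Prokr2 and the endothelium score in AB1 SC tumors gave r = 0.48 (exact p = 0.234, adjusted 0.736) and rho = 0.45 (exact p = 0.267, adjusted 0.496), and r = 0.80 without the 2 tumors farthest from the median of Prokr2.

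The genes whose levels were most like those of Reg3g and Prokr2 over the SC tumors were found by the smaller of the Pearson correlations in AB1 SC and AE17 SC tumors (n = 8 each), among 13389 genes. For Reg3g the AE17 SC correlation spans its 2 separate ranges, so that this ranking rests in part on the difference between them, and the values given here are those in AB1 SC tumors. For Reg3g they were Chst15 (0.83), Cacng1 (0.81), Hspb7 (0.80), Lmcd1 (0.85) and Slc52a3 (0.76), and the median of the smaller correlation over all candidates was -0.23. Cacng1, a calcium channel subunit of skeletal muscle, and Hspb7, a small heat shock protein of muscle, rose in AB1 IPL tumors by 3.47 (SE 0.65) and 3.01 (SE 0.74) on the log2 scale. Lmcd1 rose as well (1.49, SE 0.33), whereas Slc52a3 fell (-0.58, SE 0.16, adjusted p = 0.0134 by edgeR) and Chst15 had -0.12 (adjusted p = 0.312). In AE17 none of the 5 passed the test. The skeletal muscle markers, of which all 10 had a row and none was at 0, summed to 56.7 to 580 CPM in AB1 SC and 117 to 5254 in AB1 IPL tumors, and to 46.8 to 1428 in AE17 SC and 58.7 to 949 in AE17 IPL tumors. Of the 10, edgeR called 9 higher in AB1 IPL tumors, against 12.3% of all genes, and 0 in AE17. In AB1 the replicate block left 4, and the lane as a covariate left 0, as did the fit within lane 3. In AB1 SC tumors r of Reg3g with the muscle score was 0.72 and rho 0.69, given as a description, and the part of muscle in the Reg3g levels was not tested. Reg1 would have ranked second by this measure (0.82) but did not pass the filter.

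For Prokr2 the genes were Tnfrsf25 (0.83), Svep1 (0.79), Cd209a (0.78), Adam23 (0.77) and Dkk3 (0.75), with the smaller correlation in brackets and a median of -0.23 over all candidates. Cd209a, a C-type lectin of dendritic cells, fell in IPL tumors of both models, with log2 fold changes of -1.04 (SE 0.26, adjusted p = 0.00759) in AB1 and -1.72 (SE 0.27, adjusted p = 0.00598) in AE17 by edgeR. Within the lane that holds both sites the values were -1.13 (adjusted p = 0.202) and -1.72 (adjusted p = 0.159). Adam23 fell by 1.02 in AE17 (SE 0.24, adjusted p = 0.0248), and not past the threshold without AE17 IPL replicate 4 or AE17 SC replicate 5 (adjusted p up to 0.0546). Its AE17 value was -1.02 with the lane as a covariate (adjusted p = 0.224) and -1.03 within lane 1 (adjusted p = 0.253). With the replicate block it passed (-0.997, adjusted p = 0.0179). Svep1, an extracellular matrix protein, rose in AB1 IPL tumors by 1.49 (SE 0.32). Dkk3 rose there by 0.37 (adjusted p = 0.0424 by edgeR), a call lost in 9 of the 16 fits that left out 1 tumor. Neither Svep1 nor Dkk3 passed in AE17 (adjusted p = 0.779 and 0.973). Adam23 did not pass in AB1 (-0.56, adjusted p = 0.183). Tnfrsf25 passed in neither model, with -0.42 in AB1 (adjusted p = 0.0672) and -0.53 in AE17 (adjusted p = 0.344). For Prokr1, chosen after its values were seen, the genes were Prim1 (0.90), Lsm6 (0.89), Larp7 (0.88), Eif2b1 (0.87) and Isy1 (0.87), which act in DNA replication, RNA processing and translation, and 227 genes reached 0.7 against 22 for Reg3g and 23 for Prokr2.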

How the data were processed

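RNA from 32 whole tumors was sequenced, and the authors deposited raw counts per gene, made after alignment with HISAT2 (version 2.0.4 per the labels). Reads were counted per gene with SummarizeOverlaps, as the study's methods state. The gene IDs matched GENCODE M21 on GRCm38, which gave positions and exon lengths, and promoters came from RefSeq. Counts were used as deposited. Genes that passed filterByExpr were fitted per comparison with edgeR 4.0.16 (TMM, quasi-likelihood test, Benjamini-Hochberg adjustment over all genes tested, threshold 0.05) in R 4.3.3, with 8 tumors a group and no covariate. For genes below the filter, mean log2 CPM (prior count 2) was compared by an exact permutation test, two-sided. Scripts were tested on simulated data. Alternatives were DESeq2 1.42.0, other scalings and filters, all 32 tumors in 1 fit, the lane, the replicate block and leaving out each tumor. The members and lists were chosen with earlier results of these data known. Named genes are the 6 members, the other Reg genes, Prok1, list genes called in both models, and the 5 genes most like Reg3g and Prokr2. List genes called in 1 model or in none, markers, Gm15242 and the genes near Prokr2 or like Prokr1 were named after their values were seen.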

Additional observations from a re-analysis of the deposited data

Results flagged for a closer look

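In 16 checks (4 genes in 4 groups of 8 tumors), 2 tumors stood far from the rest of their group, while chance flags about 1 in 20 groups. AB1 SC replicate 2 had 9.49 CPM of Reg3g, and the next highest tumor had 4.92 CPM. AB1 IPL replicate 7 had 0.418 CPM of Reg1 (9 counts), and the next highest had 0.216 CPM.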

How the results depend on the processing

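The sequencing lane changed the counts of called genes most. The lane could be a covariate only in the fit of all 32 tumors. That fit called 9138 genes without the lane and 5268 with it between AB1 and AE17 SC tumors (9370 in the separate fit), 9940 and 5008 between the IPL tumors (8793), 4296 and 551 between AB1 sites (3374), and 1324 and 116 between AE17 sites (840). Within 1 lane, with fewer tumors, 169 genes passed between AB1 sites and 14 between AE17 sites. For AE17 sites, DESeq2 gave 1774 and no filter 550, for which the cause was not tested. Leaving out 1 tumor gave 9084 to 9663, 8422 to 9208, 2877 to 3652 and, for AE17 sites, 316 (without AE17 IPL replicate 4) to 2066 (without AE17 SC replicate 1). The difference of Reg3g between AB1 and AE17 IPL tumors, 0.061 on the log2 scale and not past the threshold, turned to -0.15 with DESeq2, -0.13 with no filter, -0.16 with all 32 tumors in 1 fit and -1.32 with the lane as a covariate, and lay between -0.18 and 0.23 when 1 tumor was left out. The cause was not tested, and the counts were 0 to 13.

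Replicate numbers did not pair the tumors, since the mean correlation of same-numbered deviations was -0.126, -0.048, -0.139 and 0.087 in the 4 comparisons, and 1, 0, 0 and 2 of 8 tumors correlated best with their own number. With the replicate block, 8847, 8265, 2263 and 661 genes passed.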
